A study of Mus musculus with 9 samples.

Results

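Genes of cholesterol synthesis and of cholesterol efflux were followed in splenic monocytes of mice gavaged with vancomycin, with and without a bacterial lipid given afterwards. The study describes the gut microbiome after vancomycin and a rest as replenished but low in bacteria of the phylum Bacteroidota. The 8 genes were chosen by name, 4 for each side, out of 46072 genes in the deposited tables. The synthesis genes were Srebf2, Hmgcs1, Sqle and Idi1, and the efflux genes were Nr1h3, Abca1, Abcg1 and Mylip. RNA came from young adult female C57BL/6 mice with no genetic change, 3 mice in each of 3 groups, and the monocytes were enriched from spleen by removing other cells with antibodies. Water was gavaged for 6 days in the Con group. The Van group had vancomycin in place of water over the same 6 days, 2 mg a day for each mouse, and this antibiotic stays largely in the gut. VanLip mice had the same vancomycin and were then injected behind the eye with L654 on days 7, 9 and 11. L654 is a serine-glycine lipid of Bacteroidota that is sensed through TLR2, and the study purified it from Porphyromonas gingivalis. In all groups the gavage was followed by a rest without antibiotic, of 6 to 8 days by the labels and of 8 days by the study's text on these mice, the injections fell within this rest, and the cells were not stimulated in culture. There was no group given L654 without vancomycin, and L654 can only be compared on top of vancomycin. The study's text on these mice names injections for VanLip only, but refers to a timeline in which control mice had PBS. Whether Con and Van mice had vehicle injections is therefore not clear from the sources used here, so the lipid and the injection cannot be told apart.

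A cell holds its cholesterol level with opposing programmes. When membranes run short of sterol, the escort protein SCAP carries SREBP2 (encoded by Srebf2) to the Golgi, where it is cut, enters the nucleus and switches on the enzymes of cholesterol synthesis. When sterol is plentiful, INSIG proteins hold SREBP2 back and oxidised sterols activate the liver X receptors (LXR), which switch on the transporters that export cholesterol and the E3 ubiquitin ligase IDOL. Macrophages and monocytes use both programmes, since they take up lipoproteins and dying cells.

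Promoters of both sides are shown here so that the letters near their start sites can be read side by side. RefSeq start-site windows on GRCm38.p6 were matched for 6 of the 8 genes, and none was matched for Sqle and Abcg1. The bases are printed from 250 bases before the RefSeq start up to the base before that start, or before the GENCODE gene where this begins earlier. Capitals mark a sterol response element, an inverted CCAAT box of the factor NF-Y on either strand, or a direct repeat of the LXR kind. Hmgcs1 was read at chr13:119690101-119690350 on the plus strand, Srebf2 at chr15:82147019-82147180 on the plus strand and Abca1 at chr4:53159896-53160145 on the minus strand.
Hmgcs1: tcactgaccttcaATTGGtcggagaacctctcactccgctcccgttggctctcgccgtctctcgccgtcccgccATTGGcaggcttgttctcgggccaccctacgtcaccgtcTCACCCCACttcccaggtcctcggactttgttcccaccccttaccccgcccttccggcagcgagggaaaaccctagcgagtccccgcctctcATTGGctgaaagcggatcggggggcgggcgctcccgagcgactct
Srebf2: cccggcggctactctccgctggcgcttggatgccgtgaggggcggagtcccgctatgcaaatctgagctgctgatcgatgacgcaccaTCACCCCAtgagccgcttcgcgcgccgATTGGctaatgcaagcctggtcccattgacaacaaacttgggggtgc
Abca1: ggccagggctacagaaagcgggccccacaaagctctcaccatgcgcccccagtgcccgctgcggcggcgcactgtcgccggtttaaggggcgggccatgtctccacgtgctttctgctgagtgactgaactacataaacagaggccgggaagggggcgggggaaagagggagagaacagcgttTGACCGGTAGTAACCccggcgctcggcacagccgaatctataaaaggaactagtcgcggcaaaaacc
Hmgcs1 held the sterol response element TCACNCCAC as TCACCCCAC, from 137 to 129 bases before the start, and that motif was in 1.24% of 32851 windows of the same length and in 1 of the 16 synthesis enzymes with a window. Srebf2 held the 8 letters TCACCCCA from base -162 to -155. The shortened form TCACNCCA, which was added after the windows had been seen, was in 4.36% of the windows and in 2 of the 16 enzymes. A CCAAT box on either strand was found in Hmgcs1, Srebf2, Idi1 and Mylip, in 15 of the 16 enzymes, and in 37.4% of all windows. Abca1 held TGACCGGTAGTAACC from base -67 to -53, a match to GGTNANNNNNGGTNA on the other strand, which was in 0.718% of the windows and was also added after they had been seen. The stricter repeat GGTCANNNNNGGTCA, added in the same way, and its form with 4 letters between its repeats matched none of the 6 genes with a window and were in 0.0761% and 0.0457% of the windows. The E-box CACGTG was found in Abca1 and in 7.15% of the windows. All motifs were searched on both strands, and a match describes letters only. No binding of any factor was measured.

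The 9 libraries held 16151385 to 23018927 fragments in Con and Van and 42625868 to 46180176 in VanLip. Low counts came in steps of 1.33 in Con and Van and of 2.00 in VanLip, the steps that reads of 100 and of 150 bases give under the read length of 75 that tximport assumes. The methods of the study give 100 bases for all libraries, so the VanLip fragment numbers rest on the length read from the steps. Read length and depth therefore cannot be told apart from the VanLip group. Summed monocyte markers lay between 3729 and 4386 FPKM in every library, and of 11 markers 1 differed between Van and Con, 0 between VanLip and Con and 4 between VanLip and Van by the DESeq2 test, against 4.34%, 6.67% and 9.86% of all genes (2 of the 11 had an unadjusted p under 0.05 between VanLip and Con). Ccr2, a chemokine receptor of classical monocytes, was at 159 to 173 FPKM in Con, 70.4 to 98.2 in Van and 156 to 256 in VanLip. It fell in Van against Con (log2 fold change -0.83, DESeq2 adjusted p = 0.00048) and was higher in VanLip than in Van (1.04, adjusted p = 7.4e-07). The part of such a shift among monocytes in the values of the 8 genes was not tested. The 8 neutrophil markers summed to 13.4 to 37.1 FPKM, with Ly6g at 0 in all libraries. Con samples held 58.5 to 117.4 FPKM of erythroid markers against 193 to 435 in Van and 159 to 648 in VanLip, and 335 to 393 FPKM of B cell markers against 251 to 276 and 257 to 320. In such bulk RNA, fewer cells of a type and less RNA per cell cannot be told apart.

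All 8 genes were expressed in each library. Levels are given in FPKM, fragments scaled to transcript length and library depth, so genes can be ranked by them. Srebf2, Nr1h3 and Abcg1 formed the top level with Con means between 36.4 and 42.2 FPKM. The ranges of Srebf2 and Nr1h3 overlapped in each group, as did those of Nr1h3 and Abcg1, while in Van Abcg1 lay above Srebf2 without overlap. Hmgcs1 and Mylip came next with Con means of 12.9 and 10.9 FPKM and overlapped in each group. Idi1 lay below Mylip in 9 of 9 libraries, with a Con mean of 7.39 FPKM. Sqle and Abca1 were lowest, at 5.09 and 4.24 FPKM in Con, and did not differ beyond their spread. The fewest fragments behind a value were 220, for Sqle in Van replicate 3, where counting error alone gives a coefficient of variation of 6.74%.

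Synthesis genes came first. Srebf2 (ENSMUSG00000022463; chr15:82147181-82205379, plus strand, protein coding) encodes the factor SREBP2 itself and also responds to it. Its level was 43.7, 37.1 and 45.9 FPKM in Con, 45.4, 38.4 and 35.4 in Van, and 21.9, 40.8 and 37.1 in VanLip, for replicates 1 to 3. Con and Van overlapped, although Van replicate 3 was below each Con mouse, and VanLip replicate 1 lay far below the other 8 libraries. The DESeq2 log2 fold change of Van against Con was -0.10 (standard error 0.18, adjusted p = 0.917). It was -0.36 between VanLip and Con (adjusted p = 0.264) and -0.27 between VanLip and Van (adjusted p = 0.445). None of these differences passed the test.

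Hmgcs1 (ENSMUSG00000093930; chr13:119690379-119708260, plus strand, protein coding) encodes the cytosolic synthase that makes HMG-CoA early in the pathway. Its level was 14.6, 10.3 and 13.9 FPKM in Con, 9.83, 9.42 and 8.41 in Van, and 6.66, 10.6 and 11.6 in VanLip. The 3 Van libraries all lay below the 3 Con libraries, and VanLip overlapped both. The log2 fold change for Van against Con was -0.50 with a 95% interval of -0.87 to -0.13, but its adjusted p was 0.118 and it was not called. With VanLip left out of the fit the adjusted p was 0.00519, and without VanLip replicate 1 or Con replicate 2 it was 0.00502 or 0.0356. It rose to 0.407 without Con replicate 1 and to 0.470 with limma, and 1 of 11 settings that kept all Van and Con libraries called it. VanLip against Con gave -0.45 (adjusted p = 0.147), which became -0.60 (adjusted p = 0.0258, called) without VanLip replicate 3 and -0.24 without VanLip replicate 1. Between VanLip and Van the value was 0.05, with an interval of -0.32 to 0.42.

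Sqle (ENSMUSG00000022351; chr15:59315077-59331192, plus strand, protein coding) encodes squalene epoxidase, the first oxygen-using enzyme of the pathway. It was at 5.68, 3.71 and 5.88 FPKM in Con, at 4.39, 3.86 and 3.16 in Van, and at 1.74, 3.72 and 3.78 in VanLip. Con replicate 2 lay within the range of the treated groups, and so the groups overlapped. The largest difference of the 8 genes was that of Sqle for VanLip against Con, -0.76 on the log2 scale with a standard error of 0.28 and an adjusted p of 0.0720. Without VanLip replicate 1 it was -0.48 (adjusted p = 0.199), and without Con replicate 2 or VanLip replicate 3 the adjusted p was 0.0308 or 0.0175. Van against Con gave -0.41 (adjusted p = 0.546) and VanLip against Van gave -0.35 (adjusted p = 0.525).

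Idi1 (ENSMUSG00000058258; chr13:8885501-8892451, plus strand, protein coding) encodes the isomerase that interconverts the 5-carbon building blocks of sterols. Its level was 8.27, 5.96 and 7.94 FPKM in Con, 7.24, 5.97 and 5.48 in Van, and 2.99, 5.95 and 6.49 in VanLip. Once more VanLip replicate 1 was alone at the bottom, and the other 8 libraries overlapped. Relative to Con, Idi1 differed by -0.26 in Van (log2, adjusted p = 0.727) and by -0.55 in VanLip (adjusted p = 0.160), and VanLip differed from Van by -0.29 (adjusted p = 0.550). Without VanLip replicate 3 the VanLip against Con value was -0.75 with an adjusted p of 0.0324, and without VanLip replicate 1 it was -0.28 with an adjusted p of 0.370.

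In VanLip the efflux genes varied less between mice than the synthesis genes did, with coefficients of variation of 3.92% to 20.9%. Nr1h3 (ENSMUSG00000002108; chr2:91184061-91202834, minus strand, protein coding) encodes LXR-alpha, the sterol-sensing receptor of this side. Its level was 36.1, 37.8 and 38.5 FPKM in Con, 46.9, 54.3 and 40.5 in Van, and 37.5, 46.4 and 57.1 in VanLip. The Con mice were close together, all 3 Van mice were above them, and VanLip spread from the Con level to the highest value of all. The log2 fold change from Con was 0.32 in both Van (adjusted p = 0.199) and VanLip (adjusted p = 0.159), and -0.00 for VanLip against Van, with an interval of -0.27 to 0.27. Neither difference from Con was called with all 9 libraries. In a fit of Van and Con alone the adjusted p was 0.0171, and without VanLip replicate 1 the adjusted p against Con was 0.0479 in Van and 0.00835 in VanLip. Without VanLip replicate 3 the VanLip against Con value was 0.16 and its adjusted p was 0.485.

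Abcg1 (ENSMUSG00000024030; chr17:31057675-31117988, plus strand, protein coding) encodes a half-transporter that passes cholesterol to high density lipoprotein. It was at 38.6, 32.9 and 37.6 FPKM in Con, at 48.6, 45.6 and 45.5 in Van, and at 41.7, 42.5 and 36.3 in VanLip. The Van mice stood above every Con and every VanLip mouse, and VanLip overlapped Con. Abcg1 rose 1.27-fold in Van over Con, or 0.35 on the log2 scale (standard error 0.09, 95% interval 0.17 to 0.53, DESeq2 adjusted p = 0.00679). In VanLip it was 0.13 above Con (adjusted p = 0.483) and -0.22 from Van, with an interval of -0.40 to -0.04 and an adjusted p of 0.109, so the difference between VanLip and Van did not pass the test. The call for Van against Con was lost with edgeR's quasi-likelihood test (adjusted p = 0.0777) and with limma on log2 FPKM (0.101 to 0.194), and without Con replicate 2 (0.0681) or Van replicate 1 (0.0522).

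Abca1 and Mylip, both known LXR targets, were close to level. Abca1 (ENSMUSG00000015243; chr4:53030787-53159895, minus strand, protein coding) encodes the transporter that loads cholesterol onto apolipoprotein A-I. Its level was 4.11, 3.60 and 5.02 FPKM in Con, 4.65, 5.23 and 3.43 in Van, and 5.26, 3.77 and 4.24 in VanLip, so the groups overlapped. Relative to Con its log2 fold change was 0.06 in Van and 0.05 in VanLip, and VanLip differed from Van by -0.01, with adjusted p-values of 0.955, 0.931 and 0.988. The interval for Van against Con ran from -0.28 to 0.40, and the sign turned when single libraries were left out.

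Mylip (ENSMUSG00000038175; chr13:45389742-45412022, plus strand, protein coding) encodes IDOL, the E3 ubiquitin ligase that LXR switches on. It was at 10.1, 10.3 and 12.3 FPKM in Con, at 12.1, 12.0 and 11.0 in Van, and at 11.7, 11.5 and 10.8 in VanLip. All groups overlapped, and the VanLip mice were within a 1.08-fold range. Its log2 fold changes were 0.09, 0.04 and -0.05, with adjusted p-values of 0.775, 0.892 and 0.839, and the interval for VanLip against Con was -0.14 to 0.22. None of the overlapping genes on either strand that GENCODE lists at the 8 genes had a mean above 0.136 FPKM.

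**Figure D1:**
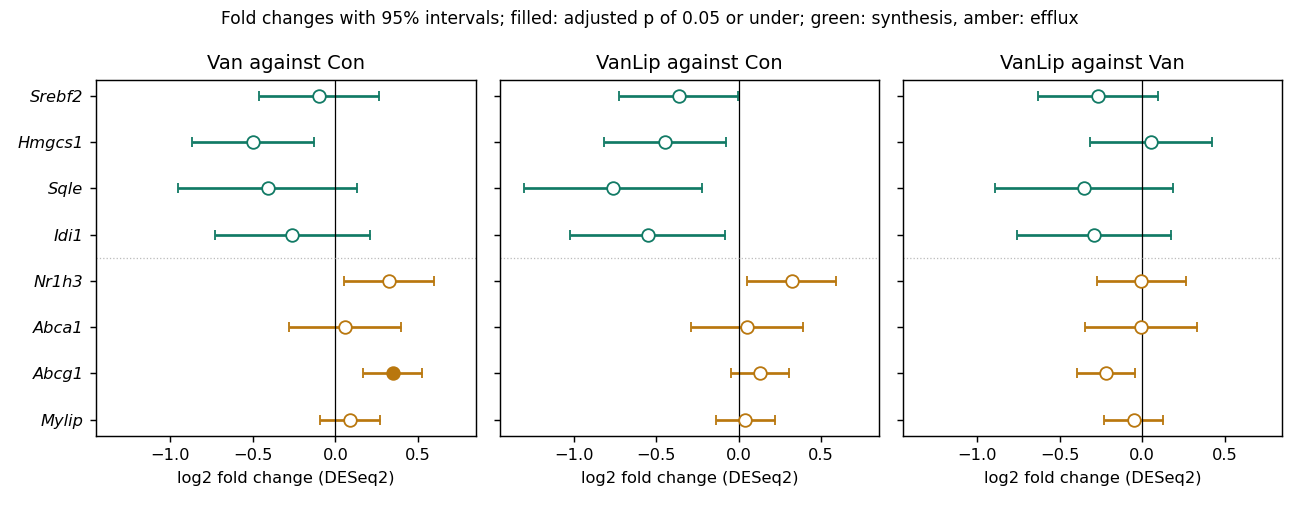
DESeq2 log2 fold changes (horizontal axis) of the 8 genes with 95% intervals, for the 3 comparisons. Only Abcg1 for Van against Con is filled, at 0.35, and the synthesis genes (green) lie at or left of 0 in all but Hmgcs1 for VanLip against Van.

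Counted together, 1 of the 8 genes was called for Van against Con, against 4.34% of all genes with an adjusted p. The FPKM of 3 genes (Hmgcs1, Nr1h3 and Abcg1) did not overlap between Con and Van, against 19.4% of all genes. For VanLip against Con 0 of the 8 were called by DESeq2, against 6.67% of all genes, with 5 at an unadjusted p under 0.05, among them each of the 4 synthesis genes, against 3315 of 25420 genes. None of the 8 was called there by edgeR, which called 1.78% of its genes, or by limma, which called 0.643% to 2.89%, and 0 of the 8 were free of overlap, against 23.0% of all genes. For VanLip against Van 0 were called by DESeq2, against 9.86% of all genes, and 0 by edgeR or limma, against 5.07% and 1.98% to 7.08%, with Abcg1 at an unadjusted p under 0.05 (3930 of 25420 genes were) and free of overlap, against 25.1% of all genes. In the likelihood-ratio test of any difference among the 3 groups, 1 of the 8 was called, Abcg1 (adjusted p = 0.00719), against 13.5% of all genes. With TMM library sizes the calls over all genes for VanLip against Con were 657 higher and 500 lower, against 494 higher and 610 lower here, and the members called were the same number.

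The opposite signs of the 2 sides were read from the medians of their fitted changes. Relative to Con, the synthesis genes had a median log2 fold change of -0.34 in Van and -0.50 in VanLip, and VanLip lay -0.28 from Van. The last value rests on VanLip replicate 1, without which Srebf2, Hmgcs1, Sqle and Idi1 were at -0.05, 0.25, -0.07 and -0.02 between VanLip and Van. Between VanLip and Con the same genes were at -0.14, -0.24, -0.48 and -0.28 without that library, so the -0.50 also leans on it. The efflux genes had medians of 0.21, 0.09 and -0.03 in the same order, and all genes had medians of -0.01, 0.01 and 0.01. Against Con, 4 of 4 synthesis genes were below 0 and 4 of 4 efflux genes were above 0 in both treated groups, which share the same Con libraries. The 8 genes were picked with earlier results known, so these signs carry no p.

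A mean over the 4 genes of each side, taken per library as log2(FPKM + 1) minus the Con mean, shows which mice carried this. The efflux mean was -0.02, -0.09 and 0.12 in Con, 0.25, 0.31 and 0.05 in Van, and 0.14, 0.12 and 0.15 in VanLip. The synthesis mean was 0.14, -0.27 and 0.13 in Con, -0.10, -0.27 and -0.42 in Van, and -0.99, -0.23 and -0.20 in VanLip. Con replicate 2 was thus as low in synthesis as most treated mice, and VanLip replicate 1 was far lower than any. The synthesis mean minus the efflux mean was 0.16, -0.18 and 0.02 in Con, -0.35, -0.58 and -0.47 in Van, and -1.13, -0.34 and -0.35 in VanLip. Each of the 6 treated mice was below each Con mouse on this difference, but the genes were picked with earlier results known. This separation therefore carries no p. The Van mean was -0.47 ± 0.12 and the VanLip mean was -0.61 ± 0.45 (SD over 3 mice), against an SD of 0.17 in Con. Without VanLip replicate 1 the VanLip value was -0.35.

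**Figure D2:**
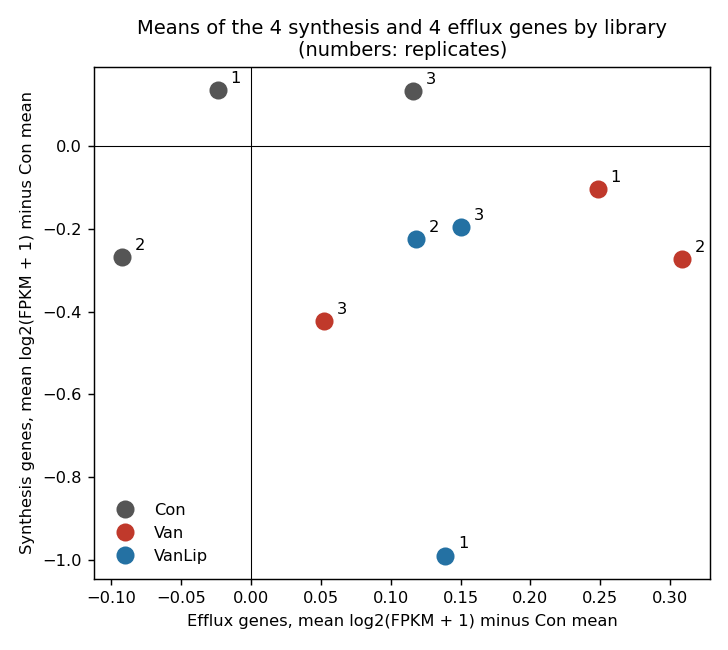
Mean log2(FPKM + 1) minus the Con mean for the 4 synthesis genes (vertical axis) against the 4 efflux genes (horizontal axis), 1 point per library with its replicate number. Van lies to the right of 0 and below 0, and VanLip replicate 1 stands alone at -0.99 on the vertical axis.

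The 4 synthesis genes also followed each other from mouse to mouse, in a way their group means do not show. Within Con each was lowest in replicate 2, within Van each was lowest in replicate 3, and within VanLip each was lowest in replicate 1. Their highest VanLip library was 1.75 to 2.17 times the lowest. The coefficient of variation in VanLip was 30.1% for Srebf2, 27.3% for Hmgcs1, 37.7% for Sqle and 36.7% for Idi1, against a median of 8.77% over genes with a mean of at least 1 FPKM. For the efflux genes Mylip, Abcg1, Abca1 and Nr1h3 it was 3.92%, 8.33%, 17.2% and 20.9%. VanLip replicate 1 was the lowest of the 9 libraries for 4 of 4 synthesis genes, and for 13.9% of 11710 genes with a mean of at least 1 FPKM.

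The other enzymes of the pathway had the same library at the bottom. VanLip replicate 1 was lowest for 13 of the 18 enzymes other than Hmgcs1, Sqle and Idi1, and so for 16 of 21 in all. Cyp51, the lanosterol demethylase, was at 2.87 FPKM there, against 5.29 and 6.51 in the other VanLip mice and 6.79 to 10.8 in Con. Fdps, which makes farnesyl pyrophosphate, was at 7.58 FPKM, against 14.6 in both others and 14.5 to 20.1 in Con. Both were named after their values were seen, although Fdps also had the profile nearest to that of Idi1. Sc5d, Ebp, Mvd, Ggps1 and Tm7sf2 were not lowest there, the last 3 also named after their values were seen. Cyp51 overlaps Akap9 on the other strand.

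**Figure D3:**
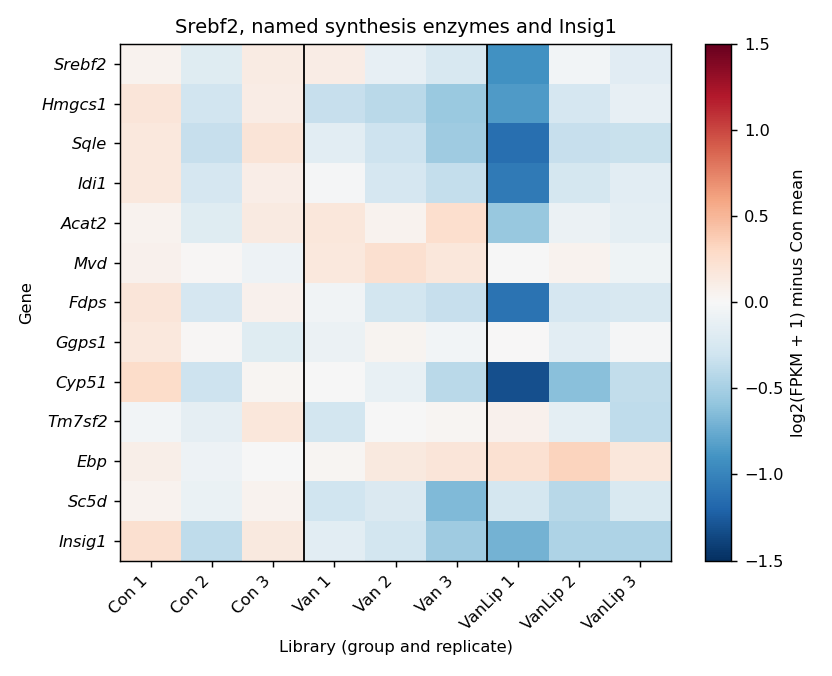
Log2(FPKM + 1) minus the Con mean (colour) of Srebf2, the synthesis enzymes named in the text and Insig1 (rows) in the 9 libraries (columns). The VanLip 1 column is the darkest blue, Con 2 is bluer than the other Con columns, and Ebp runs the other way.

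Platelet markers moved with these genes from library to library. Their sum over 6 genes was 18.9, 11.1 and 23.3 FPKM in Con, 13.5, 12.3 and 10.6 in Van, and 5.07, 13.0 and 12.4 in VanLip, so it was low in Con replicate 2 and lowest in VanLip replicate 1. The summed markers of conventional dendritic cells and of T and NK cells were lowest in the same library of each group, replicate 2 of Con, replicate 3 of Van and replicate 1 of VanLip. The dendritic markers summed to 156, 134 and 148 FPKM in Con, 141, 138 and 121 in Van, and 118, 135 and 132 in VanLip, and the T and NK markers to 15.2, 12.7 and 17.5, to 12.4, 14.2 and 9.73, and to 7.53, 13.4 and 15.8. Itgax, which monocytes also express, and Cd4 carried much of these sums, at 46.2, 79.6 and 74.9 FPKM and at 4.85, 8.67 and 11.0 in VanLip, and single markers did not all follow them. The dendritic markers Flt3, Clec9a, Batf3 and Cd209a were highest in replicate 1 among the VanLip mice, Flt3 at 13.9 FPKM against 8.74 and 8.12. Dividing-cell markers were lowest in VanLip replicate 1, at 13.5 FPKM against 17.7 to 31.7 in the other libraries, but not low in Con replicate 2. Ppbp, a platelet chemokine, had the profile most like that of Sqle over the 9 libraries, with a Pearson correlation of 0.99 among 7798 genes. The part of these cells in the synthesis values was not tested. Markers of red pulp macrophages, the spleen cells that clear old red cells, summed to 1706, 1994 and 2062 FPKM in Con, 2000, 2655 and 2207 in Van, and 1701, 2024 and 2175 in VanLip. The sum ran in the order of Nr1h3 within Con and within VanLip, and both were highest in replicate 2 within Van. For Van against Con 12 of 12 of these markers had a value above 0 and 1 was called (Vcam1), against 4.34% of all genes. The part of red pulp macrophages in the Abcg1 rise and in the Nr1h3 values was not tested.

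Profile likeness over the 9 libraries was tight on the synthesis side and loose on the efflux side. Idi1 was most like Fdps (Pearson correlation 0.99), Srebf2 was most like Sat1 (0.97) and Hmgcs1 was most like C1galt1 (0.97). Among the 8 genes, Sqle and Idi1 were nearest to each other at 0.98, Srebf2 was nearest to Idi1 at 0.97 and Hmgcs1 to Sqle at 0.93. On the efflux side Nr1h3 was most like Usp1 (0.97), Abcg1 most like Crat (0.97), Mylip most like Gmip (0.95) and Abca1 most like Spen (0.91). The nearest other member was at 0.29 for Nr1h3, 0.55 for Abcg1 and 0.67 for Abca1 and Mylip. These values are descriptions over 9 libraries that share groups and, in VanLip, depth. VanLip replicate 1 was the lowest library for each of the 4 synthesis genes, and no correlation was computed without it.

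The wider pathway was read from 55 other genes in 6 lists. Between Van and Con 4 of the 55 were called, 1 higher and 3 lower in Van, against 4.34% of all genes. Between VanLip and Con there were 3 (6.67% of all genes), of which 2 were higher and 1 lower in VanLip, and between VanLip and Van there were 4 (9.86% of all genes), of which 1 was higher and 3 lower. Of the 21 synthesis enzymes, Hmgcs1, Sqle and Idi1 among them, 17 had a value below 0 in Van relative to Con, 19 in VanLip relative to Con and 15 in VanLip relative to Van. All genes had medians of -0.01, 0.01 and 0.01 in the same order. VanLip replicate 1 was the lowest library for 16 of these enzymes, and the counts were not taken without it. In each comparison 1 of the 21 was called. Sc5d, a late sterol desaturase, fell in Van (log2 fold change -0.45, DESeq2 adjusted p = 0.0476), from 6.96 to 7.88 FPKM in Con to 4.41 to 6.38. That call held in 5 of the 9 fits with 1 library left out and in 3 of 11 other settings (adjusted p up to 0.294, with limma). Ebp, the sterol isomerase, rose in VanLip over Con (0.25, adjusted p = 0.0498), a call that held in 1 of the 9 fits and 2 of the 11 settings (up to 0.277, without VanLip replicate 2). Acat2, which makes acetoacetyl-CoA at the head of the pathway, was lower in VanLip than in Van (-0.58, adjusted p = 0.0416), which held in 3 of the 9 fits and 1 of the 11 settings (up to 0.206, with limma).

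Among the controllers and targets of SREBP2, Insig1 stood out. Insig1, a sterol-sensing retention protein that is itself an SREBP2 target, was at 56.4, 36.5 and 52.8 FPKM in Con, 42.5, 39.4 and 32.8 in Van, and 28.9, 34.2 and 34.4 in VanLip. The 3 VanLip mice were all below the 3 Con mice, VanLip replicate 1 included but not alone. It fell in VanLip against Con by 0.62 on the log2 scale, with a DESeq2 adjusted p of 0.00302. Leaving out Con replicate 1 moved that adjusted p to 0.0633, edgeR gave 0.0843 and limma on log2 FPKM as much as 0.202, and the call held in 8 of 9 fits with 1 library left out and in 7 of 11 other settings. Its value was -0.39 in Van relative to Con (adjusted p = 0.163) and -0.23 in VanLip relative to Van (adjusted p = 0.421). Scap, the escort protein, was at 9.85 to 10.2 FPKM in Con and 12.0 to 12.4 in Van without overlap, and the difference of 0.28 was not called (adjusted p = 0.128).

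Of 9 partners and targets of LXR, 1 was called in each comparison with Con, a partner in Van and a target in VanLip, against 4.34% and 6.67% of all genes. Rxrb, a retinoid X receptor that pairs with LXR, rose in Van over Con (log2 fold change 0.28, DESeq2 adjusted p = 0.0239), from 29.3 to 33.0 FPKM to 37.0 to 41.2. The call held in 5 of 9 fits with 1 library left out and 6 of 11 other settings (adjusted p up to 0.256, with limma). Pltp, a phospholipid transfer protein and LXR target, rose in VanLip over Con (0.45, adjusted p = 0.0497), which held in 4 of 9 and 2 of 11 (up to 0.375, with limma). The Pltp gene overlaps Ctsa on the other strand, and the strand setting of the counting was not given in the sources used here. Nr1h2, which encodes the second LXR, was level at Con, Van and VanLip means of 63.8, 68.9 and 66.3 FPKM, with a lowest adjusted p of 0.782. Srebf1, the LXR target that drives fatty acid synthesis, was at 16.4, 15.9 and 16.4 FPKM, with a lowest adjusted p of 0.801.

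Storage and fatty acid genes gave the remaining calls. Lipa, the lysosomal lipase that frees cholesterol from its esters, fell in Van (log2 fold change -0.37, DESeq2 adjusted p = 0.0430). Soat1, which makes cholesterol esters, was lower in VanLip than in Van (-0.26, adjusted p = 0.00906), at 24.2 to 26.9 FPKM against 29.0 to 32.6. Fasn, the fatty acid synthase, was lower in VanLip than in Van too (-0.53, adjusted p = 0.0458). Scd1, the stearoyl-CoA desaturase, fell in Van against Con (-0.90, adjusted p = 0.0164) and was higher in VanLip than in Van (0.78, adjusted p = 0.0275), at means of 1.66, 0.895 and 1.54 FPKM in Con, Van and VanLip. Both of its comparisons share the Van libraries. Of the 9 fits with 1 library left out and the 11 other settings, the call held in 4 and 5 for Lipa, 7 and 7 for Soat1, 4 and 2 for Fasn, and 7 and 7 and then 6 and 6 for the comparisons of Scd1. The highest adjusted p, with limma, was 0.374 for Lipa, 0.164 for Soat1, 0.268 for Fasn and 0.334 and 0.270 for Scd1.

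Leaving out libraries 1 at a time showed how far the 8 genes depended on single mice. In the comparisons with VanLip, replicate 1 of that group moved the synthesis values far. Without it Srebf2 for VanLip against Con was -0.14 in place of -0.36, Hmgcs1 was -0.24 in place of -0.45. Between Van and Con it was Con replicate 2 whose omission moved Hmgcs1 and Sqle furthest, from -0.50 to -0.64 and from -0.41 to -0.60. Each of the 4 synthesis genes stayed below 0 against Con in the 9 fits that left out 1 library. The numbers of the 8 genes called in those 9 fits ran from 0 to 3 for either treated group against Con, while 2.37% to 6.48% of all genes were called for Van and 3.39% to 8.15% for VanLip. They were 0 throughout between VanLip and Van, against 6.23% to 10.3% of all genes. With VanLip replicate 1 left out, Hmgcs1, Nr1h3 and Abcg1 were called for Van against Con.

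**Figure D4:**
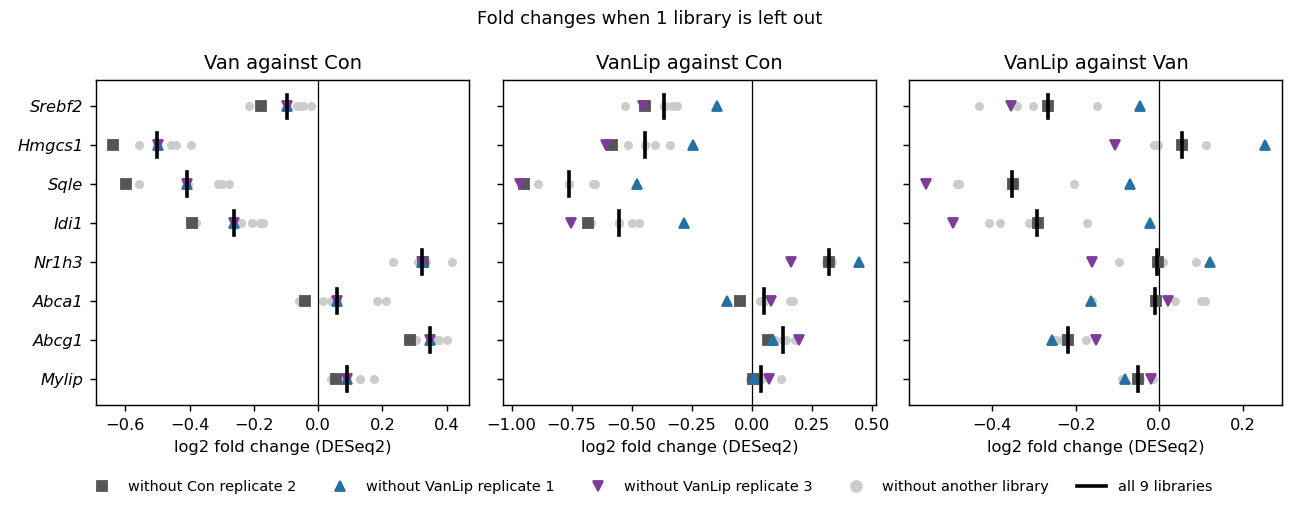
DESeq2 log2 fold changes (horizontal axis) of the 8 genes with all 9 libraries (black bars) and with 1 library left out (symbols), for the 3 comparisons. Without VanLip replicate 1 (triangles) the synthesis genes move toward 0 in VanLip against Con, Sqle from -0.76 to -0.48.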

How the data were processed

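RNA from splenic monocytes of 9 mice, 3 per group, was sequenced by the authors after stranded messenger RNA preparation. The sample titles gave the groups. According to the labels and the methods of the study, reads were aligned with HISAT2 2.2.1 to GRCm38 and handled with SAMtools 1.9. The authors deposited FPKM values from StringTie 2.1.3. They also deposited expected counts per gene, made from StringTie output with tximport, which are not normalized and need not be whole. The annotation release is not given in the sources used here.

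The 8 genes, the pathway lists and the marker lists were chosen with earlier results of these data known. Genes were matched by symbol, and identifiers and coordinates were matched to GENCODE release M21 for 99.1% of the 26108 genes detected. After rounding, the expected counts of all genes were tested with the DESeq2 1.42.0 Wald test in R 4.3.3, as in the study's methods, with median-of-ratios size factors, 9 libraries in 1 fit, group as the only term and Benjamini-Hochberg adjustment. Genes with an adjusted p no higher than 0.05 were called. All p-values are two-sided, intervals are 95% Wald intervals, and percentages of genes called refer to genes with an adjusted p. Means over genes used log2(FPKM + 1). Named beside the 8 genes were pathway genes called in at least 1 comparison, the fixed genes Insig1, Scap, Nr1h2 and Srebf1 (some fixed genes are not reported here), and the nearest profile of each of the 8 among genes with a mean FPKM of at least 5.

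Alternatives were edgeR 4.0.16, limma 3.58.1 on quantile-normalized log2(FPKM + 1), on log2(FPKM + 0.1) and on genes whose mean FPKM reached 1, TMM library sizes, a filter of 10 counts in 3 libraries, no independent filtering, 2 groups only, counts converted to fragments, VanLip fragments thinned to the depth of the others, a replicate block and leaving out each library. Counting error is given from fragments and covers counting only. RefSeq promoter windows ran from 250 bases before to 50 after the start.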

Additional observations from a re-analysis of the deposited data

How the results depend on the processing

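Of 740 values of 37 log2 fold changes under the alternatives, 585 kept direction and side of the threshold, 124 kept the direction but lost the call, 12 gained it and 19, of 6 fold changes, turned sign. For Van against Con the number of the 8 genes called was 1, and it was 0 with edgeR and with each of the 3 limma fits (1.21% and 0.0651% to 0.769% of all genes), 3 with only the 2 groups compared (9.23%), and 0 to 3 when 1 library was left out (2.37% to 6.48%). For VanLip against Con it was 0, and 0 to 3 when 1 library was left out (3.39% to 8.15%). For any difference among the 3 groups it was 1, then 0 with edgeR and the 3 limma fits (4.67% and at most 6.18%), and 0 to 3 when 1 library was left out (8.63% to 15.2%). The cause was not tested. Signs turned for genes near 0. Nr1h3 for VanLip against Van went from -0.00 to 0.0030 with edgeR and 0.021 with TMM, and ran from -0.16 to 0.12 when 1 library was left out. Abca1 for VanLip against Van went from -0.01 to 0.015 with TMM, and ran from -0.16 to 0.11. Left-out libraries also turned Abca1 for Van against Con (-0.060 to 0.21) and for VanLip against Con (-0.10 to 0.17), Hmgcs1 for VanLip against Van (-0.11 to 0.25) and Mylip for VanLip against Con (-0.0090 to 0.12). The synthesis mean minus the efflux mean ran from -0.39 to -0.56 in Van and from -0.35 to -0.74 in VanLip. With a replicate block the number of the 8 genes called was 1, 0, 0 and 1, the same as without it. The order is Van over Con, VanLip over Con, VanLip over Van, then any difference among the 3 groups. In that order the block called 3.66%, 4.5%, 6.71% and 10.4% of all genes. Libraries of the same number correlated at -0.06 to 0.12 in their deviations, and 4 of 9 were nearest to their own number. The numbers were treated as names only. Whether they mark a shared cage or preparation is not given in the sources used here, and these correlations cannot settle it. Depth and read length cannot be told apart from VanLip.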
